A study of Mus musculus with 6 samples.

Results

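Smooth muscle cells wrap arteries and arterioles, and pericytes sit on the capillaries that run between heart muscle fibres. Together they are called mural cells. The 10 genes followed here in mouse hearts mark these cells, 4 that build or regulate the contractile machinery of smooth muscle (Acta2, Myh11, Tagln and Cnn1) and 6 that mark pericytes (Rgs5, Pdgfrb, Cspg4, Kcnj8, Abcc9 and Notch3). They were chosen by name, and all 10 were found among the 25361 genes of the table. The hearts came from 3 male wild-type C57BL/6N mice given ISO+L-NAME and from 3 untreated controls of the same sex, genotype and strain, 12 weeks old, with collection after a treatment period of 6 weeks. L-NAME inhibits nitric oxide synthase, ISO is spelled as in the labels, and the series title names the treatment a model of HFpEF, heart failure with preserved ejection fraction. Each library was made from the RNA of heart tissue by 3′-end sequencing and held 2217974 to 2637364 counted reads.

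In an artery, contraction rests on smooth muscle actin and myosin, and the genes for both are switched on by serum response factor and its partner myocardin through a DNA element called the CArG box. Pericytes share part of this programme but depend on platelet-derived growth factor signalling for their recruitment and on Notch3 for their maturation, and many of them carry an ATP-sensitive potassium channel. Smooth muscle actin is also made by fibroblasts that have been activated in a scar, so its message is not specific to vessels. In bulk RNA of heart tissue, fewer cells of a type and less RNA per cell cannot be told apart.

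The promoters of the contractile genes are shown because the CArG box is the element that these genes are known to share. RefSeq promoters on GRCm38.p6, from 250 bases before the transcription start to 50 bases after it, were found for 7 of the 10 members, of which 2 were contractile and 5 were pericyte genes. The Acta2 promoter is chr19:34255324-34255623 on the minus strand and the Cnn1 promoter chr9:22099003-22099302 on the plus strand. Capitals mark CArG boxes in which 1 of the 6 inner bases is G or C.
Acta2: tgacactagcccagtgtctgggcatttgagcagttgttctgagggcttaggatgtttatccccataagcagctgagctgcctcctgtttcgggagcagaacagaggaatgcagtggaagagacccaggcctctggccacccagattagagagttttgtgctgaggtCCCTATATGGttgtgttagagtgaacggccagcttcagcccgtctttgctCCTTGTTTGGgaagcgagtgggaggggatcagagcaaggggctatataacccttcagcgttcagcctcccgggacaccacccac
Cnn1: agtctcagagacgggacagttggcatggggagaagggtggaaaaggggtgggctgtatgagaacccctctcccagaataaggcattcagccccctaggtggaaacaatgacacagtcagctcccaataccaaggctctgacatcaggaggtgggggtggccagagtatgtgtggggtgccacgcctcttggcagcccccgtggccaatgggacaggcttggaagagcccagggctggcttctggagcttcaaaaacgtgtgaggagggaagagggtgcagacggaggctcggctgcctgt

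The Acta2 window held 2 such boxes, CCCTATATGG beginning at -84 and CCTTGTTTGG at -34 from the annotated RefSeq start. It held no box whose inner bases were all A or T. The Cnn1 window and the 5 pericyte windows held neither form. The box reads as a CArG box on both strands, so 1 search covers both. Of 32851 mouse promoters of this length, 1.63% held the form with A or T throughout, 8.50% the form with 1 G or C, and 0.822% held 2 or more boxes of either form.

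Of the 4 contractile genes, smooth muscle actin was more abundant in treated hearts while smooth muscle myosin was less abundant, and Tagln and Cnn1 had lower means in treated hearts but no call. None of the 6 pericyte genes passed. Levels below are in CPM, counts scaled to a common library size of 1e6 reads. A change is the log2 of the treated over the control level, followed by its standard error (SE) and its 95% interval. The quasi-likelihood test of edgeR was run over the 8531 genes with enough counts, its p-values were adjusted by the Benjamini-Hochberg procedure, and a gene is called at an adjusted p under 0.05. Of the 10 members, 9 had enough counts to be tested, all but Cnn1. Of these 9, 1 was called higher and 1 lower, where 6.10% of all tested genes were called, 3.41% higher and 2.68% lower.

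**Figure D1:**
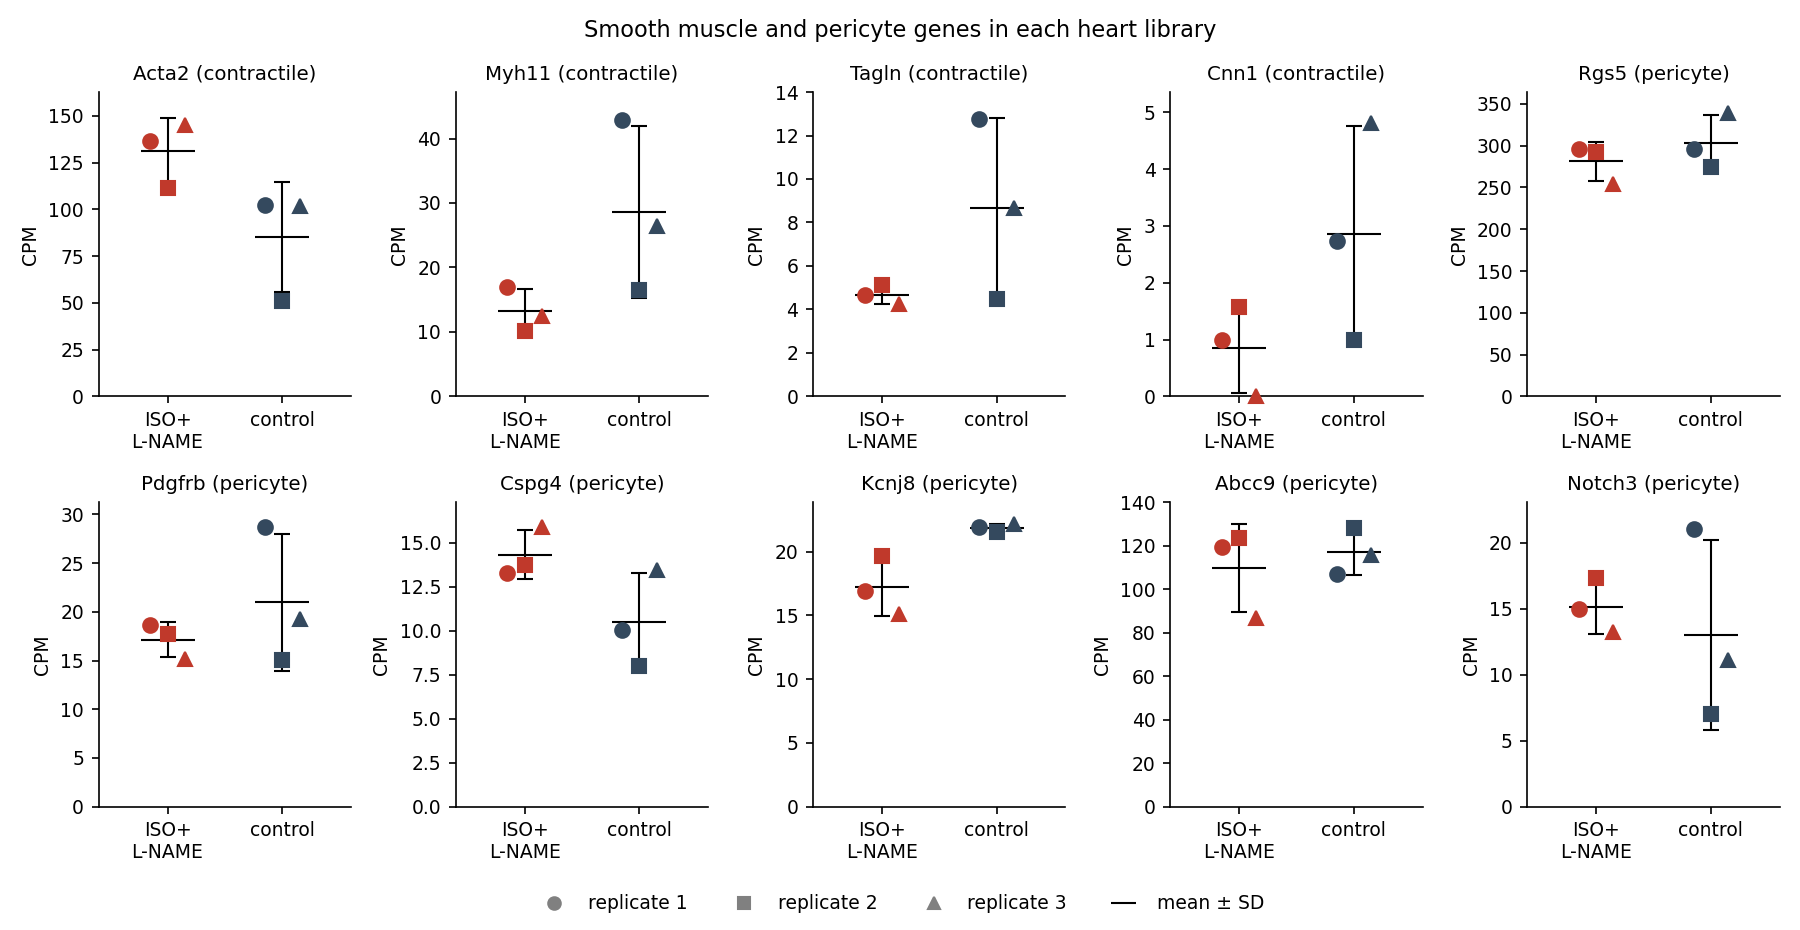
Level of each member in each library (vertical axes in CPM, each starting at 0), with ISO+L-NAME hearts left of control hearts. Symbols are single libraries and bars the mean ± SD of 3. Acta2 lies between 112 and 145 CPM in treated hearts and between 51.0 and 102 CPM in controls, and control 2 is the lowest control for 9 of the 10 genes.

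Acta2 encodes the smooth muscle form of alpha-actin, the thin filament protein of vascular muscle (ENSMUSG00000035783, chromosome 19, 34218490 to 34232990 on GRCm39, minus strand). It stood at 137, 112 and 145 CPM in ISO+L-NAME hearts 1 to 3, against 102, 51.0 and 102 CPM in control hearts 1 to 3. All treated hearts lay above all controls, and control 2 stood well below the other two controls. The means were 131 ± 17.5 CPM in treated hearts and 85.1 ± 29.5 CPM in controls (SD, n = 3 each). The log2 change was 0.62 ± 0.18 (SE; 95% interval 0.25 to 1.00, edgeR adjusted p = 0.0428). That call was lost without control 2, where the change was 0.35 (edgeR adjusted p = 0.170), and without any 1 of the treated hearts (0.0569 to 0.144). A robust fit (0.238), DESeq2 (0.474) and a filter at a mean of 5 CPM (0.0508) did not call it either.

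Myh11 encodes smooth muscle myosin heavy chain, the motor of the thick filament (ENSMUSG00000018830, chromosome 16, 14012399 to 14109236, minus strand). Treated hearts had 16.9, 10.2 and 12.4 CPM, against 42.9, 16.5 and 26.5 CPM in controls. The lowest control, control 2, lay just under the highest treated heart, so the groups overlapped. Myh11 averaged 13.2 ± 3.43 CPM in treated hearts and 28.6 ± 13.3 CPM in controls (SD, n = 3 each). It fell by 1.11 ± 0.28 on the log2 scale (95% interval -1.68 to -0.54, edgeR adjusted p = 0.0166). Without control 1, the control with the highest level, the change was -0.70 and the call was lost (edgeR adjusted p = 0.206). It was also lost without ISO+L-NAME 2 or 3 (0.105 and 0.0528) and when libraries were scaled by total counts alone (-0.81, edgeR adjusted p = 0.0641).

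Tagln encodes transgelin, an actin-binding protein of smooth muscle that is among the early marks of the lineage (ENSMUSG00000032085, chromosome 9, 45840917 to 45847356, minus strand). Its counts were 14, 13 and 11 in treated hearts, against 28, 9 and 18 in controls, or 4.65, 5.11 and 4.27 CPM in treated hearts, against 12.8, 4.50 and 8.66 CPM in controls. Treated hearts were close to each other, and control 2 lay among them while the other two controls lay above. The log2 change of -0.90 ± 0.35 (95% interval -1.63 to -0.16) did not pass (edgeR adjusted p = 0.167), and without control 2 it was -1.20 (edgeR adjusted p = 0.0474). The 3′ end of Tagln overlaps that of Pcsk7, on the other strand, by 108 bases. How the counting used strand is not given in the sources used here, so reads there are uncertain. Pcsk7 itself had 8, 23 and 18 counts in treated hearts and 13, 10 and 15 in controls.

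Cnn1 encodes calponin, which binds actin and restrains the myosin motor in differentiated smooth muscle (ENSMUSG00000001349, chromosome 9, 22010512 to 22020926). It had 3, 4 and 0 counts in treated hearts, against 6, 2 and 10 in controls, too few to be tested. In a fit with no filter on low counts its log2 difference was -1.67 (edgeR adjusted p = 0.170).

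**Figure D2:**
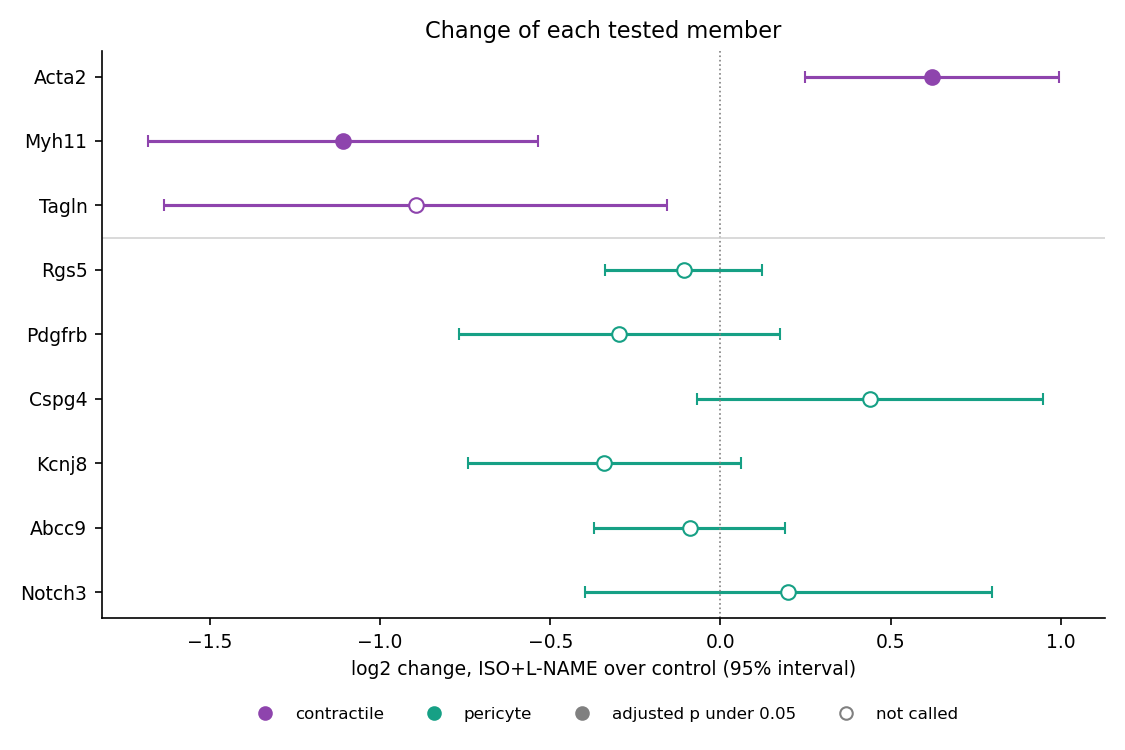
Log2 change of the 9 tested members, ISO+L-NAME over control (horizontal axis), with contractile genes above the line and pericyte genes below it. Points are edgeR estimates, bars their 95% intervals, and filled points passed an adjusted p of 0.05. Acta2 at 0.62 and Myh11 at -1.11 lie on either side of 0, and all 6 pericyte intervals include 0.

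A ratio of 2 counts from the same library does not depend on how libraries are scaled to each other. The number of Acta2 reads per Myh11 read was 8.08, 10.9 and 11.7 in ISO+L-NAME hearts, against 2.38, 3.09 and 3.85 in controls. The lowest treated heart was above the highest control, and control 2 lay between the other two controls. The treated to control difference in log2 ratio was 1.73, or 3.31-fold (exact two-sided permutation p = 0.1, the smallest that 3 against 3 can give). Leaving out any 1 library left it between 1.55 and 1.90. The ratio was chosen with the values of both genes known.

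The same held for Acta2 against Tagln, at 29.4, 21.8 and 34.0 reads in treated hearts, against 8.0, 11.3 and 11.8 in controls. Myh11 against Tagln, by contrast, overlapped between groups, at 3.64, 2.0 and 2.91 in treated hearts and 3.36, 3.67 and 3.06 in controls. Within the contractile set, then, the ratios that separated the groups were those with Acta2 in them, among the 3 pairs compared.

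**Figure D3:**
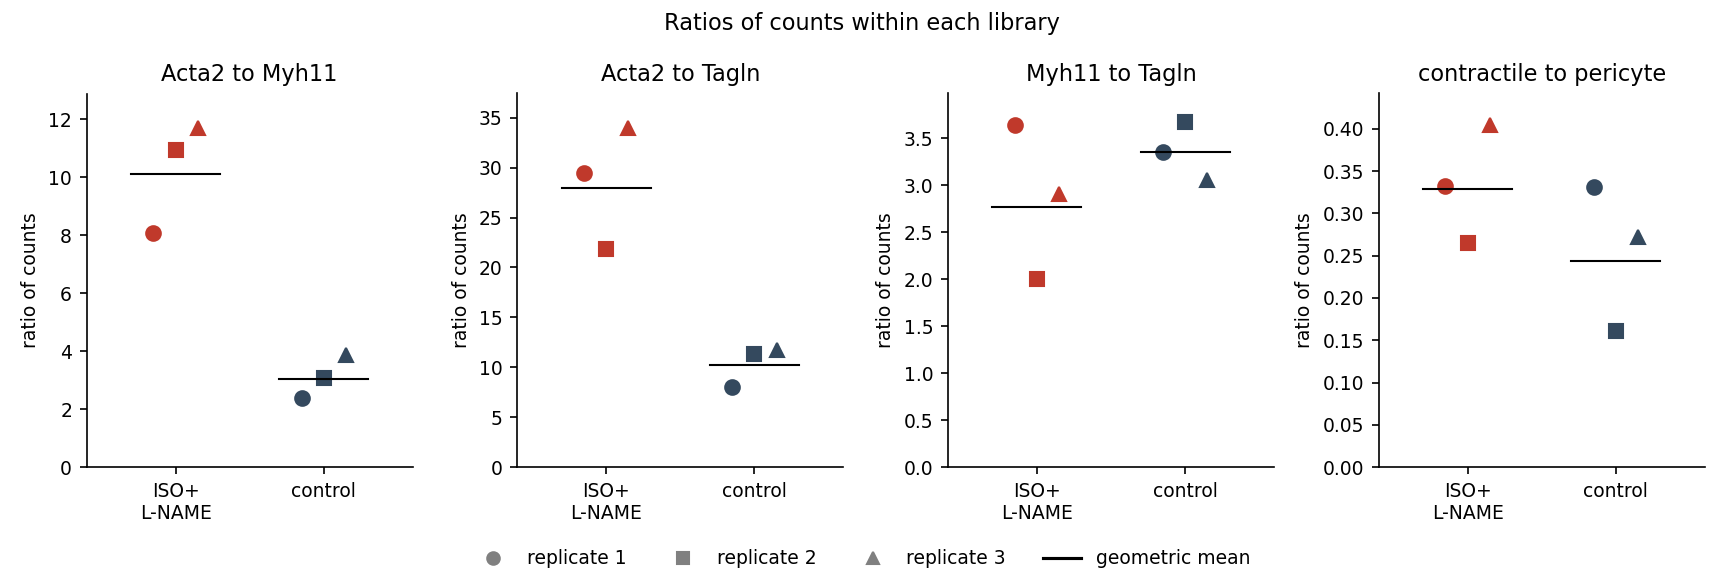
Ratios of counts within each library (vertical axes, linear and starting at 0), with ISO+L-NAME hearts left of control hearts. Symbols are single libraries and lines geometric means. Acta2 to Myh11 runs from 8.08 to 11.7 in treated hearts and from 2.38 to 3.85 in controls, while the ratio of all contractile to all pericyte counts overlaps between groups.

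Rgs5, a regulator of G-protein signalling that marks pericytes, had the most counts of the 6 pericyte members (ENSMUSG00000026678, chromosome 1, 169483070 to 169523382). It stood at 296, 293 and 254 CPM in treated hearts, against 296, 274 and 339 CPM in controls. The groups overlapped, and the log2 change was -0.11 ± 0.11 (95% interval -0.34 to 0.12, edgeR adjusted p = 0.688). That interval is the narrowest among the tested members and does not reach the estimates of Acta2 or Myh11. With total counts alone the estimate was 0.19.

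Pdgfrb encodes the receptor through which platelet-derived growth factor B holds pericytes to the endothelium (ENSMUSG00000024620, chromosome 18, 61178222 to 61218133). Its levels were 18.6, 17.7 and 15.1 CPM in treated hearts, against 28.7, 15.01 and 19.3 CPM in controls, where control 1 was above every other library. The log2 change was -0.30 ± 0.23 (95% interval -0.77 to 0.17, edgeR adjusted p = 0.565).

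Cspg4 encodes the proteoglycan NG2 on the pericyte surface (ENSMUSG00000032911, chromosome 9, 56772317 to 56807154). It stood at 13.3, 13.8 and 15.9 CPM in treated hearts, against 10.0, 8.01 and 13.5 CPM in controls. Only control 3 reached the treated range, and the log2 change was 0.44 ± 0.24 (95% interval -0.07 to 0.95, edgeR adjusted p = 0.378). Scaling by total counts alone called it higher (0.74, edgeR adjusted p = 0.0481).

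Kcnj8 and Abcc9 encode the pore (Kir6.1) and the sulfonylurea receptor (SUR2) of the vascular ATP-sensitive potassium channel, and they lie next to each other on chromosome 6 (142510563 to 142517340 and 142533588 to 142648041, both minus strand), 16247 bases apart. Abcc9 is also used by heart muscle cells, with another pore. Kcnj8 stood at 16.9, 19.7 and 15.1 CPM in treated hearts, against 21.9, 21.5 and 22.1 CPM in controls. All treated hearts lay below all controls, whose values were close together. The log2 change of -0.34 ± 0.19 (95% interval -0.74 to 0.06) did not pass (edgeR adjusted p = 0.388). On total counts it was -0.04. Abcc9 overlapped between groups, at 119, 123 and 86.6 CPM in treated hearts and 107, 128 and 116 CPM in controls (log2 -0.09 ± 0.13, 95% interval -0.37 to 0.19, edgeR adjusted p = 0.801).

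Notch3 encodes the Notch receptor of mural cells (ENSMUSG00000038146, chromosome 17, 32339794 to 32385826, minus strand). Its levels were 14.9, 17.3 and 13.2 CPM in treated hearts, against 21.0, 7.0 and 11.1 CPM in controls. The controls spread more widely than the treated hearts and enclosed them. The log2 change was 0.20 ± 0.29 (95% interval -0.40 to 0.80, edgeR adjusted p = 0.795), and it was -0.10 without control 2 and 0.73 without control 1.

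Set side by side, the 3 tested contractile genes had a median log2 change of -0.90 with 1 higher and 1 lower, and the 6 pericyte genes a median of -0.10 with 0 called. Of the pericyte genes, 0 had an unadjusted p under 0.05 in edgeR, and limma-voom and DESeq2 called 0 of them. Of all 8531 tested genes, 1545 had an unadjusted p under 0.05. The median of all genes tested was -0.01. Of the 9 tested members, 2 had groups that did not overlap (Acta2 higher, Kcnj8 lower), against 22.7% of all tested genes, so separation was about as common among them as among all genes. The summed contractile counts per pericyte count were 0.333, 0.265 and 0.404 in treated hearts, against 0.331, 0.161 and 0.272 in controls, with overlap. Most of the contractile counts are Acta2 reads. With Acta2 left out, the ratio was 0.0471, 0.0349 and 0.0417 in treated hearts, against 0.121, 0.0485 and 0.0766 in controls, a log2 difference of -0.90. The groups were then separate, though treated heart 1 and control 2 nearly met. With Acta2 included but each gene weighted equally, as a mean of log2 counts, the difference was -0.74, against 0.43 for the summed counts. That mean gave equal weight to Cnn1, which was too low to be tested. Cnn1 had 3, 4 and 0 counts in treated hearts, against 6, 2 and 10 in controls, and its part in the -0.74 was not tested. The direction of a contractile to pericyte comparison thus depended on the weight of Acta2 and on how the genes were combined.

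Among the controls, control 2 was low for most of these members. It was the lowest of the 3 controls for 9 of the 10 members, all but Abcc9, and for 33.6% of all tested genes. Its level over the mean of the other two controls was 0.265 for Cnn1, 0.420 for Tagln, 0.437 for Notch3, 0.476 for Myh11 and 0.50 for Acta2, but 0.864 for Rgs5 and 0.977 for Kcnj8. Its share of mitochondrial reads was 56.7%, the highest of all libraries, against 55.0% and 53.6% in controls 1 and 3 and 45.5% to 47.8% in treated hearts. With mitochondrial genes left out of the fit, the contractile genes still had 1 higher and 1 lower, with a median of -0.90. Without control 2 they had 0 higher and 2 lower, with Acta2 at 0.35 and Myh11 at -1.39. The cause of these differences between libraries was not tested.

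Around the 10 members, the other genes of smooth muscle and pericyte biology were mostly not called. For each of the lists with 0 calls in edgeR that follow, limma-voom and DESeq2 also called 0. Counts of genes at an unadjusted p under 0.05 are to be read beside 1545 of all 8531 tested genes. Among 11 tested of 16 further smooth muscle contractile genes, 0 were called in either direction (median -0.11), with 3 at an unadjusted p under 0.05. With total counts alone 2 were called higher, and without a filter on low counts 2 were called lower. The myosin light chain gene Myl6 differed by -0.12 ± 0.12 and the caldesmon gene Cald1 by -0.05 ± 0.15 (edgeR adjusted p = 0.679 and 0.920). Myl9, the regulatory light chain of smooth muscle myosin, was singled out after its values were seen. Its CPM was lower in all treated hearts, though treated heart 1 (14.3 CPM) and control 2 (14.5 CPM) nearly met. Of all tested genes, 22.7% had groups that did not overlap. The log2 difference of Myl9, -0.73 ± 0.24, did not pass (edgeR adjusted p = 0.0828). It did without control 2 (-0.89) and with no filter on low counts (edgeR adjusted p = 0.0412).

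Among 7 tested of 10 regulators of smooth muscle genes, 0 were called (median 0.25, 4 at an unadjusted p under 0.05), and 4 were called higher with total counts alone. Klf4, a factor known to repress contractile genes, differed by -0.38 ± 0.15 and Gata6 by 0.25 ± 0.14 (edgeR adjusted p = 0.152 and 0.408). Without control 2, Klf4 was called lower (-0.55). Myocardin (Myocd) and serum response factor (Srf), named for their role at the CArG box after their values were seen, differed by -0.20 ± 0.19 and 0.50 ± 0.24 (edgeR adjusted p = 0.663 and 0.271).

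Of 14 further pericyte and mural genes, 11 were tested, 1 was higher and 1 lower (median -0.23). Aspn, the matrix proteoglycan asporin, which fibroblasts also make, rose by 1.17 ± 0.20 (edgeR adjusted p = 0.000628), at 99, 68 and 99 counts in treated hearts, against 33, 31 and 27 in controls. Art3, an ADP-ribosyltransferase family gene, fell by 0.48 ± 0.14 (edgeR adjusted p = 0.0449), a call lost with DESeq2 (0.142), with total counts (0.391) and in 5 of the 6 fits without 1 library. Mcam and Rgs4 differed by -0.30 ± 0.23 and -0.63 ± 0.22 (edgeR adjusted p = 0.585 and 0.108).

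**Figure D4:**
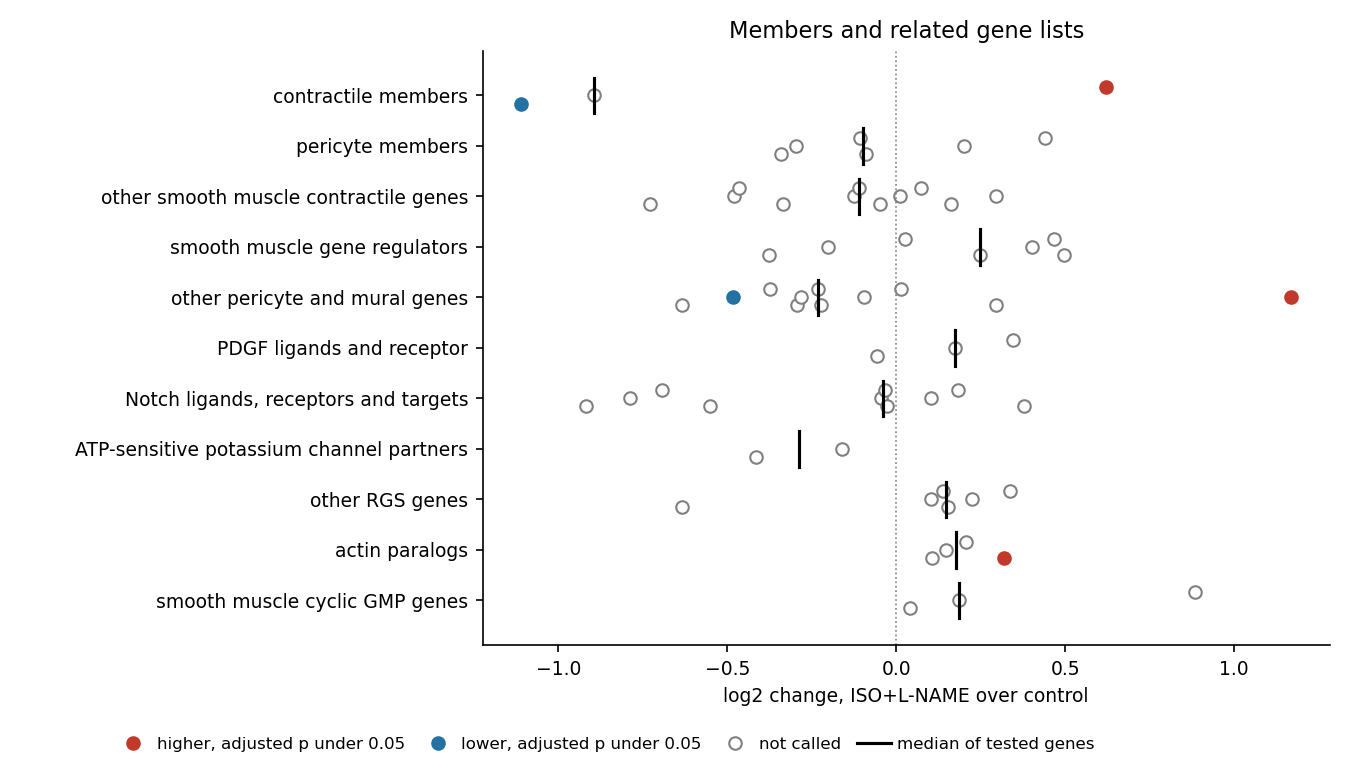
Log2 change of the members and of genes in related lists, ISO+L-NAME over control (horizontal axis). Each circle is 1 tested gene, filled where its adjusted p was under 0.05, and bars are list medians. The 10 lists outside the contractile members hold 3 filled points, Aspn and Actc1 to the right of 0 and Art3 to the left.

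Of the signals that reach mural cells, 3 of 5 genes for PDGF ligands and the alpha receptor were tested and 0 called (0 at an unadjusted p under 0.05), with the ligand genes Pdgfa at 0.35 ± 0.17 and Pdgfb at -0.06 ± 0.22 (edgeR adjusted p = 0.302 and 0.938). Of 13 Notch ligands, other receptors and targets, 10 were tested and 0 called (median -0.04, 3 at an unadjusted p under 0.05). The target gene Hes1 differed by -0.55 ± 0.19 and the receptor gene Notch1 by -0.03 ± 0.24 (edgeR adjusted p = 0.0975 and 0.967). Heyl, a Notch target of mural cells named after its values were seen, had 15 counts in each treated heart, against 25, 15 and 26 in controls (-0.92 ± 0.29, edgeR adjusted p = 0.0727), and without control 2, Hes1 and Heyl, 2 genes of this list, were called lower.

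The partners of the potassium channel genes, Kcnj11 and Abcc8, differed by -0.16 ± 0.14 and -0.42 ± 0.26 (edgeR adjusted p = 0.634 and 0.442). Among 17 other RGS genes 6 were tested and 0 called (1 at an unadjusted p under 0.05), the most abundant being Rgs2, at 0.15 ± 0.15 (edgeR adjusted p = 0.681). Of 5 genes for cyclic GMP signalling in smooth muscle, the pathway below nitric oxide, 3 were tested and 0 called (1 at an unadjusted p under 0.05). The guanylate cyclase subunit genes Gucy1a1 and Gucy1b1 stood at 0.04 ± 0.28 and 0.19 ± 0.33 (edgeR adjusted p = 0.969 and 0.845). The other tested gene had the largest difference, 0.88, and with total counts alone 1 gene of the list was called higher.

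Other actins could share reads with Acta2 where sequences are alike, and whether they did was not tested. Cardiac actin Actc1, with 27143 to 30145 counts in treated hearts and 16487 to 20637 in controls, rose by 0.32 ± 0.09 (edgeR adjusted p = 0.0490), a call lost with DESeq2 (0.0562), with library sizes from the deposited scaled values (0.0535), with the filter at a mean of 5 CPM (0.0509) and in 5 of the 6 fits without 1 library. There were 0.0137, 0.0105 and 0.0124 Acta2 reads per Actc1 read in treated hearts, against 0.0109, 0.00619 and 0.0123 in controls, which overlapped. Actb differed by 0.10 ± 0.12 (edgeR adjusted p = 0.729), and by -0.04 without control 2. Skeletal actin Acta1 stood at 41.2, 139.6 and 414 CPM in treated hearts, against 144, 161 and 208 CPM in controls, so treated hearts lay on both sides of the controls. Its log2 difference was 0.21 ± 0.42 (edgeR adjusted p = 0.871), and -0.94 without ISO+L-NAME 3 (edgeR adjusted p = 0.0636). The enteric smooth muscle actin gene Actg2 had 1 read in all libraries together.

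Genes of other cells moved beside these. Of 8 markers of activated fibroblasts, 4 had enough counts to be tested. Cilp and Thbs4 reached that number only through the treated hearts, and Postn, at 9 counts in control 2, needed them as well. The number called and the p-values of these genes thus say little about the list. Postn had 151, 77 and 167 counts in treated hearts, against 24, 9 and 15 in controls (2.66 ± 0.29, edgeR adjusted p = 7.78e-06). Cilp had 104, 38 and 75 counts in treated hearts, against 6, 3 and 8 in controls (3.26 ± 0.37, edgeR adjusted p = 1.07e-05). Meox1 was called higher (edgeR adjusted p = 0.0496), but not in 9 of the 16 other settings (adjusted p 0.00930 to 0.208 over the 16). Fap, too low to be tested, had 8 reads in treated hearts and 15 in controls. The summed level of all 8 markers was 125, 68.4 and 137 CPM in treated hearts, against 23.7, 16.01 and 22.6 CPM in controls. From highest to lowest, this sum and Acta2 both ran ISO+L-NAME 3, 1 and 2, and control 1, 3 and 2. Controls 1 and 3 were nearly level for Acta2, at 102.2 and 102.0 CPM. The control order was not particular to Acta2. Myh11, Tagln, Pdgfrb and Notch3 had it too, and Myh11 and Tagln had lower means in treated hearts. Control 2 was the lowest control for 9 of the 10 members, not for Acta2 alone. The part of activated fibroblasts in the Acta2 result was not tested.

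Of 10 general fibroblast markers 9 were tested and 3 rose (6 with total counts alone), with sums of 1064 to 1250 CPM in treated hearts and 777 to 1072 CPM in controls, and Mfap5 and Lum had the smallest p (edgeR adjusted p = 1.32e-05 and 0.00613). Of 12 endothelial markers 11 were tested and 0 called (5 at an unadjusted p under 0.05, and 2 called higher with total counts alone), with sums of 1208 to 1225 CPM in treated hearts and 1158 to 1405 CPM in controls. Macrophage markers were called higher for 5 of 8 tested genes (8 with total counts alone), and their sums were 333 to 403 CPM in treated hearts and 160 to 206 CPM in controls. Lyz2 (1.22 ± 0.14) and C1qb (1.14 ± 0.17) had the smallest p among them. Heart muscle markers were abundant in every library, at 36275 to 40346 CPM in treated hearts and 46887 to 48258 CPM in controls, with 1 of 10 higher and 4 lower. With total counts alone the same list had 3 higher and 0 lower. Among the 4 lower, the myosin light chain genes Myl3 and Myl2 had the smallest p, at -0.52 ± 0.09 and -0.45 ± 0.09, against -0.22 and -0.15 with total counts, where neither was called. The part of these cell types in the changes of the mural genes was not tested.

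The fat cell genes Adipoq, Plin1, Cidec and Lep and the skeletal muscle genes Myh1, Myh2 and Myh4 had no read in any library. The 6 markers of the epicardium and its mesothelium were too low to be tested, with sums of 1.33 to 2.72 CPM in treated hearts and 5.0 to 16.8 CPM in controls. With no filter on low counts, 2 of these 6 were called lower and 0 had a positive estimate. Their part in the results was not tested. The 5 red blood cell messages were not called (2 at an unadjusted p under 0.05), with sums of 4032 to 5009 CPM in treated hearts and 4359 to 6079 CPM in controls.

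Of 7897 genes with a mean of at least 5 CPM, those whose log2 CPM followed Acta2 most closely over the 6 libraries were Slc35e1, Tubb2b and Usp22 (Pearson r = 0.993, 0.984 and 0.983). Among those closest to Myh11 were Phlda1 and Oaz2 (r = 0.992 and 0.985). All values come from the same libraries and the choice was made among that many genes, so these are descriptions of 6 points. Of these 5 genes only Phlda1 was called, and it was lower (-0.74, edgeR adjusted p = 0.0428).

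**Figure D5:**
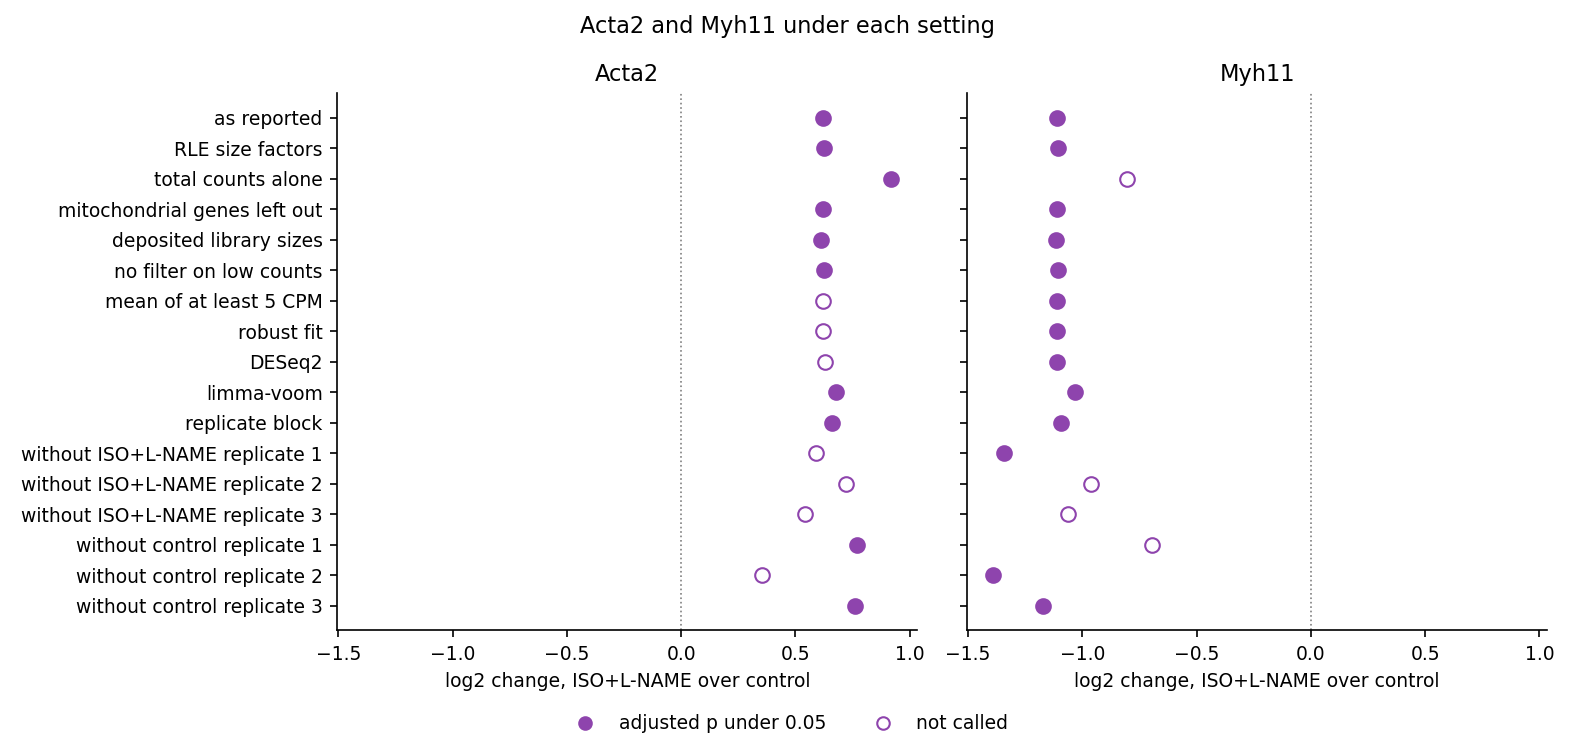
Log2 change of Acta2 and Myh11 (horizontal axes) as reported and under each of 16 other settings (vertical axis), with filled points where the adjusted p was under 0.05. Acta2 stays above 0, from 0.35 without control 2 to 0.92 with total counts, and Myh11 below 0, from -1.39 to -0.70, while the calls come and go.

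Across the 16 settings, both genes kept their sign, Acta2 between 0.35 and 0.92 and Myh11 between -1.39 and -0.70. Acta2 was not called in 7 of them and Myh11 not in 4. Total counts alone moved the median of all genes up by 0.30 on the log2 scale and made 95.1% of calls higher, against 56.0% with the scaling used here. Relative to that shift, the pericyte median of 0.21 on total counts lay below the median of all genes, 0.30.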

How the data were processed

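Heart RNA, extracted with Trizol, was made into QuantSeq 3′ mRNA-Seq V2 FWD libraries, per the labels' protocols. Reads come from the ends of transcripts, so counts do not grow with gene length. GRCm39 and bcl2fastq stand in the submitters' processing notes. Which aligner, counter, strand setting and annotation were used is not given in the sources used here. Per the file headers, the deposited values are whole-number counts for each gene and a scaled signal that the deposited table's header calls CPM. That signal equals the count times 1 constant per library and was used only for an alternative set of library sizes.

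Counts of 25361 genes in 6 libraries, 3 per group, of 2217974 to 2637364 reads, were tested with edgeR 4.0.16 (R 4.3.3): filterByExpr (minimum count 10, minimum total 15), TMM scaling (factors 0.857 to 1.15), quasi-likelihood test and Benjamini-Hochberg adjustment (0.05) over 8531 genes. CPM here are counts scaled to a TMM library size of 1e6, after this filter. The series design gives 3 mice per group. No pair of libraries of the same group agreed within counting noise, and pairs across groups were not compared. The Acta2 to Myh11 ratio was compared with exact permutation tests (scipy 1.17.1), and the other ratios were not tested. The fit was tested on simulated data.

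The members and lists were chosen with earlier results of these data known. Genes were named by a rule: all members, from each related list up to 4 called genes by smallest p and up to 2 uncalled ones by highest mean CPM, from each marker list up to 2 called genes, and the 3 genes most correlated with Acta2 and with Myh11. Some genes that this rule selects are not reported here. Myl9, Heyl, Myocd and Srf were added after their values were seen. Other tools tried were DESeq2 1.42.0 and voom from limma 3.58.1. Other settings were RLE size factors, total counts, library sizes from the deposited signal, mitochondrial genes left out, a floor of 5 CPM on the mean, no floor, robust dispersion, a replicate block and each library left out. Promoter sequences come from RefSeq on GRCm38.p6, another build than the file's.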

Additional observations from a re-analysis of the deposited data

How the results depend on the processing

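With total counts alone, 1407 genes were called higher and 72 lower, and the members called were 2 higher (Acta2 and Cspg4) and 0 lower. That scaling also turned the estimates of Rgs5 (0.19), Pdgfrb (0.0070) and Abcc9 (0.22) positive. DESeq2 called 138 genes lower. A mean of at least 5 CPM, the robust fit and DESeq2 each left 0 members higher. Leaving out 1 library gave 179 to 272 genes higher, 122 to 222 lower, 0 to 1 members higher and 0 to 2 lower. Without 1 library, Abcc9 ran from -0.18 to 0.0513, the highest without ISO+L-NAME 3, and Notch3 from -0.10 without control 2 to 0.73 without control 1. The log2 contractile to pericyte ratio of 0.43 was -0.74 as a mean of log2 counts and -0.90 with Acta2 left out, an alternative chosen after seeing the data, and 0.13 to 0.65 without 1 library. The ratio of Acta2 to Myh11 was 1.55 to 1.90 without 1 library. Unless stated, the cause was not tested. With the replicate number as a block, 319 genes were higher and 241 lower, Acta2 was 0.66 and Myh11 -1.10, and no member's call changed. The Acta2 to Myh11 ratio was then 1.73 (exact permutation p = 0.25, the smallest that 3 pairs can give). Same-numbered libraries correlated at 0.06, -0.05 and -0.02, and not every library correlated best with its own number, so the numbers were not taken as pairs. Depth limits Cnn1, with 7 reads in treated hearts and 18 in controls, and Tagln, with 38 and 55.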
